A study of Homo sapiens with 48 samples.

Results

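The 38 genes described here are 35 genes of the actin cytoskeleton, known as targets of serum response factor (SRF) and its myocardin-related coactivators, and 3 regulators, namely SRF and the coactivators MRTFA and MRTFB. They were taken by gene symbol from a table of 60610 genes, and all 38 were found. The list holds the 3 regulators, the actins (ACTB, ACTG1, ACTG2, ACTA2), the crosslinkers (ACTN1, ACTN4, FLNA, FLNC), the focal adhesion proteins (VCL, ZYX, TLN1, TLN2, TGFB1I1), the calponin family (TAGLN, TAGLN2, CNN1, CNN2, CNN3), the tropomyosins (TPM1 to TPM4), myosin II subunits (MYL6, MYL9, MYH9, MYH10), LIM domain proteins (FHL1, FHL2, FHL3, LIMA1, PDLIM5, PDLIM7) and proteins of filament turnover (CFL1, PFN1, WDR1). Polyadenylated RNA was sequenced from 1 clone of HEK293, a human embryonic kidney line, that carried a stably integrated human angiotensin II receptor 1 (AT1R, encoded by AGTR1) introduced together with a puromycin resistance plasmid. All 8 groups shared this transgene and serum-free medium. They were control, 1 nM angiotensin II (AII), 10 µg/L EGF and AII + EGF, each at 6 h and 24 h. The question was how the 2 receptors act on transcription alone and together.

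Actin monomers hold the coactivators MRTFA and MRTFB in the cytoplasm. When monomers are built into filaments, the coactivators are released, enter the nucleus and join SRF on CArG boxes, the DNA element that SRF binds, near genes of the cytoskeleton. SRF can instead join ternary complex factors (TCF), which respond to ERK and drive early genes such as EGR1 and FOS. In smooth muscle cells the MRTF branch, with myocardin, maintains contractile genes.

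Of the 48 libraries, 38 entered the main comparisons. In 4 of 1128 pairs the counts of the paired libraries differed by less than sampling noise (chi-square per degree of freedom 0.397 to 0.505, against 2.02 or more in every other pair), so these 8 libraries were left out. In 3 of the 4 pairs the libraries carried labels of different groups. The libraries labelled AII 6 h replicate 6 and AII + EGF 6 h replicate 6 were left out as well, because their profiles lay near the opposite group. Over 1492 genes, on a scale from the AII mean at 0 to the AII + EGF mean at 1, they stood at 0.872 and 0.0101, a choice that used measured values. The groups kept 4, 5, 3 and 4 libraries at 6 h (control, AII, EGF, AII + EGF) and 6, 5, 5 and 6 at 24 h, with about 17783800 to 29956500 counts each. Levels are CPM, each count divided by its TMM-scaled library total and brought to a common library size, and log2 changes are from edgeR. Whether libraries came from separate cultures was not given in the labels, so p-values measure the spread between these libraries. Among the kept libraries the closest pairs were AII 6 h replicates 1 and 2 (chi-square per degree of freedom 2.02) and EGF 6 h replicates 3 and 4 (3.32). Whether such neighbours are independent was not tested. In bulk RNA a lower level in all cells and in fewer cells cannot be told apart. AGTR1 was read at 3959 to 15209 CPM. Markers of the line (VIM, KRT8, KRT18, NEFL, NEFM, LIN28B) summed to 3357 to 10881 CPM, and 3 of the 6 (KRT18, NEFM and LIN28B) were higher under AII + EGF at 6 h. AGTR1 also averaged 4267 CPM in the 6 h controls and 10033 CPM under AII + EGF. Endothelial markers summed to at most 2.62 CPM and blood cell markers to at most 4.20 CPM. The fibroblast list summed to 19.9 to 75.8 CPM, nearly all of it COL1A1 and COL3A1, with COL1A2, DCN and LUM below 1 CPM on average. The smooth muscle list summed to 44.4 to 69.6 CPM through SMTN and SYNM, with DES and MYOCD below 1 CPM on average. COL3A1 was higher under AII at 6 h and lower under AII + EGF at 24 h, and LMOD1 was higher under AII + EGF at 24 h. The part of these shifts in the results below was not tested.

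RefSeq promoters (GRCh38.p14) were available for 35 of the 38 genes. ACTB, TAGLN and MYL9 had no entry. A CArG box, read on either strand and taken as its 10-base consensus without mismatch, stood in the 250 bases before a listed start of 10 of the 35 genes (28.6%), against 1.44% of all 27305 genes in the same promoter table. By start, 12 of 70 starts of the members held one, against 407 of 35116 starts in all. The members were chosen as known SRF targets, with earlier results of these data known. The share is therefore not independent of that choice and is given as a description. Among the 10 genes that were called against control in the comparisons below, 4 held a box, and among the other 25 with a promoter, 6 did. The stretches below show where the box stands in SRF and in those 4 genes, with CArG boxes in capitals. SRF holds a pair of boxes that begin 30 and 10 bases before its start, and the boxes of ACTG1 and FLNA both begin 94 bases before theirs. Those of ACTN1 and TPM4 begin 171 and 173 bases before. Bases that lie in an annotated exon of a protein-coding gene were left off. The ACTN1 stretch precedes a start inside the gene, and the FLNA stretch overlaps an exon of a long noncoding RNA. The positions (GRCh38.p14) are chr6:43171019-43171268 (plus strand) for SRF, chr17:81512852-81513049 (minus) for ACTG1, chr14:68977655-68977816 (minus) for ACTN1, chr19:16067307-16067533 (plus) for TPM4 and chrX:154374635-154374884 (minus) for FLNA.
SRF: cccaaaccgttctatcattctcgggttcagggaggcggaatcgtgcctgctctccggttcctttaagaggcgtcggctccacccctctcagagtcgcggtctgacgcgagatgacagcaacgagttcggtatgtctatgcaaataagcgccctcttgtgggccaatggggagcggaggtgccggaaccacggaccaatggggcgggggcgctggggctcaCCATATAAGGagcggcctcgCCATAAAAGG
ACTG1: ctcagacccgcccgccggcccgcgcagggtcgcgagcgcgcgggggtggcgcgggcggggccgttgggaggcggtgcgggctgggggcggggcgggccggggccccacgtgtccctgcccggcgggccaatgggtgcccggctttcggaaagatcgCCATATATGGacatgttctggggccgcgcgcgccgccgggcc
ACTN1: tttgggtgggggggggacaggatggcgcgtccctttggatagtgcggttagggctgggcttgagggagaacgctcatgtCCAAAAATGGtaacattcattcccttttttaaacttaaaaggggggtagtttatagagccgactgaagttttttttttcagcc
TPM4: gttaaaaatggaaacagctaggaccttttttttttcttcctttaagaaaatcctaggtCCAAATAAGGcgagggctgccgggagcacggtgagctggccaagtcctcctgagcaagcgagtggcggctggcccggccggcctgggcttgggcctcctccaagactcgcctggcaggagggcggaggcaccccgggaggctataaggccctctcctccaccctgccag
FLNA: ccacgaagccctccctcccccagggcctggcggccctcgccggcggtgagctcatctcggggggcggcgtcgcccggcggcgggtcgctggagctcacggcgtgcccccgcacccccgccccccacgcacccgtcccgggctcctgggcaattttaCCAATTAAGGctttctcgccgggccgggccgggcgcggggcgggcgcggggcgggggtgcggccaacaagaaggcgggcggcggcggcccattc

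The remaining boxes belonged to ACTG2 (2 boxes), FHL2 (1 box at each of 3 starts), CNN2, FHL1 and TGFB1I1. For FHL2 the boxes 101 and 85 bases before their starts are the same stretch, seen from neighbouring starts. It is counted at both. VCL, ZYX, FLNC, TPM1, TLN2 and PDLIM5 had a promoter entry and no exact box in this window, which says only that these letters are not there.

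Per kilobase of exon (GENCODE v44 exon lengths), ACTB and ACTG1, the cytoplasmic actins, stood first in the 6 h controls with 392 ± 99.3 and 352 ± 97.2 CPM per kb (SD, n = 4), which overlapped each other, followed by PFN1 (278 ± 64.2) and TAGLN2 (260 ± 36.8). FLNA, the filamin that crosslinks cortical actin, stood at 79.0 ± 9.80 CPM per kb. The length of a gene was the union of the exons of all its annotated transcripts, for example 4424 bases for MYL6 and 10860 for FLNA. The order of the genes depends on these lengths, and which transcripts were in use was not tested. SRF stood at 27.9 ± 1.76, whereas MRTFA and MRTFB stood at 3.74 ± 0.310 and 2.40 ± 0.262 CPM per kb. The smooth muscle genes were low or absent. ACTA2, the smooth muscle actin, stood at 1.51 ± 0.312 and TAGLN at 0.164 ± 0.0244 CPM per kb. CNN1 stood at 0.0780 ± 0.0315 CPM per kb. ACTG2 and MYL9 had at most 8 and 7 counts in any group in total. They were not tested, which left 36 genes in the tests. A gene was called where its adjusted p was below 0.01, its change was at least 1.5-fold, which is 0.585 on the log2 scale, and its mean was above 5 CPM in the higher group.

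SRF, MRTFA and MRTFB themselves were called in none of the 13 comparisons, 6 of them against control. SRF was read at 122, 125, 109 and 114 CPM in the control libraries, 105, 107, 121, 107 and 116 under AII, 119, 112 and 129.97 under EGF and 109, 103, 99.6 and 116 under AII + EGF. MRTFA was at 27.9, 29.8, 27.5 and 24.3 CPM in the control libraries, 28.2, 26.5, 29.3, 28.5 and 30.6 under AII, 27.5, 27.04 and 27.9 under EGF and 28.8, 29.3, 25.4 and 30.1 under AII + EGF. MRTFB was at 34.8, 44.8, 41.7 and 38.1 CPM in the control libraries, 50.2, 46.8, 41.2, 43.4 and 45.8 under AII, 39.5, 37.05 and 38.9 under EGF and 41.01, 42.96, 38.3 and 36.8 under AII + EGF. Each stimulated group overlapped the controls for all 3 genes. The log2 change under AII + EGF at 6 h was -0.14 ± 0.11 (SE, adjusted p = 0.344) for SRF, with a 95% interval of -0.36 to 0.08. It was 0.05 (interval -0.16 to 0.27) for MRTFA and -0.0032 (interval -0.26 to 0.25) for MRTFB. At 24 h SRF was at 67.3 to 109 (median 81.1) CPM in the 6 controls, at 78.2, 75.7, 73.3, 88.8 and 105 under AII, at 85.2, 73.4, 77.2, 75.6 and 79.9 under EGF and at 68.03 to 87.01 (median 82.9) in the 6 libraries with AII + EGF. MRTFA was at 18.9 to 27.5 (median 23.9) CPM in the 6 controls, at 22.9, 25.4, 23.03, 21.9 and 20.2 under AII, at 23.4, 22.3, 25.7, 23.1 and 18.5 under EGF and at 19.6 to 28.1 (median 23.01) in the 6 libraries with AII + EGF. MRTFB was at 25.7 to 44.3 (median 39.1) CPM in the 6 controls, at 34.9, 46.9, 34.1, 36.7 and 34.6 under AII, at 34.9, 39.1, 31.8, 43.8 and 32.3 under EGF and at 26.02 to 36.8 (median 31.3) in the 6 libraries with AII + EGF. Among the 24 h comparisons against control the most negative value was that of MRTFB under AII + EGF, at -0.23 ± 0.10 (SE, adjusted p = 0.116), which was not called. Time and the order of library titles went together in this series and cannot be told apart, so levels at 6 h and 24 h are set against the controls of the same time only.

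**Figure D1:**
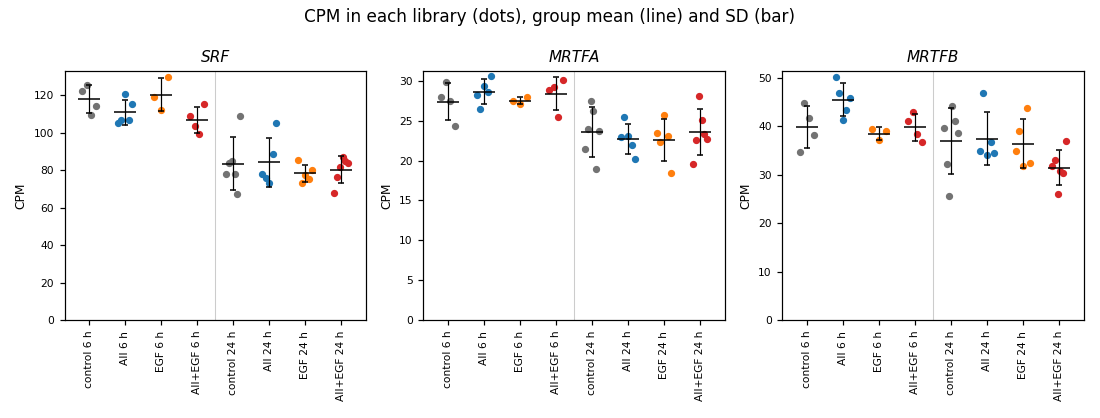
SRF, MRTFA and MRTFB in CPM (y axis, from 0) in each of the 38 libraries by group (x axis), as dots with the group mean as a line and the SD as a bar. Each stimulated group overlaps the control of the same time for each of the 3 genes.

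Under AII + EGF at 6 h, 10 of the 36 tested genes were called, 8 higher and 2 lower. Over all genes 12% were called, 6.45% higher and 5.53% lower. Genes that did not exceed 5 CPM on the higher side could not be called. The shares over all genes, here and below, were not matched for expression. FLNC, VCL, FLNA, ZYX, ACTG1, TPM4, PDLIM5 and ACTN1 rose by 1.55-fold to 2.204-fold, and TLN2 and TPM1 fell. The 36 genes had a median log2 change of 0.270, against -0.0318 over all 19626 genes tested, and 27 of the 36 were positive. Because the members were chosen with earlier results of these data known, their counts and medians are descriptive, here and below. The groups did not overlap for 17 of the genes, 14 of them higher (ACTG1, ACTN1, ACTN4, VCL, CNN3, TPM4, MYH10, FLNA, FLNC, ZYX, FHL2, WDR1, TGFB1I1 and PDLIM5) and 3 lower (TPM1, TLN2 and ACTA2). That separation held for 33.4% of all genes. Without scaling factors the median of all genes under AII + EGF at 6 h moved from -0.0318 to -0.136, and the calls over all genes from 1266 higher and 1085 lower to 923 higher and 1442 lower. Every direction given for a called gene was the same under each scaling.

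**Figure D2:**
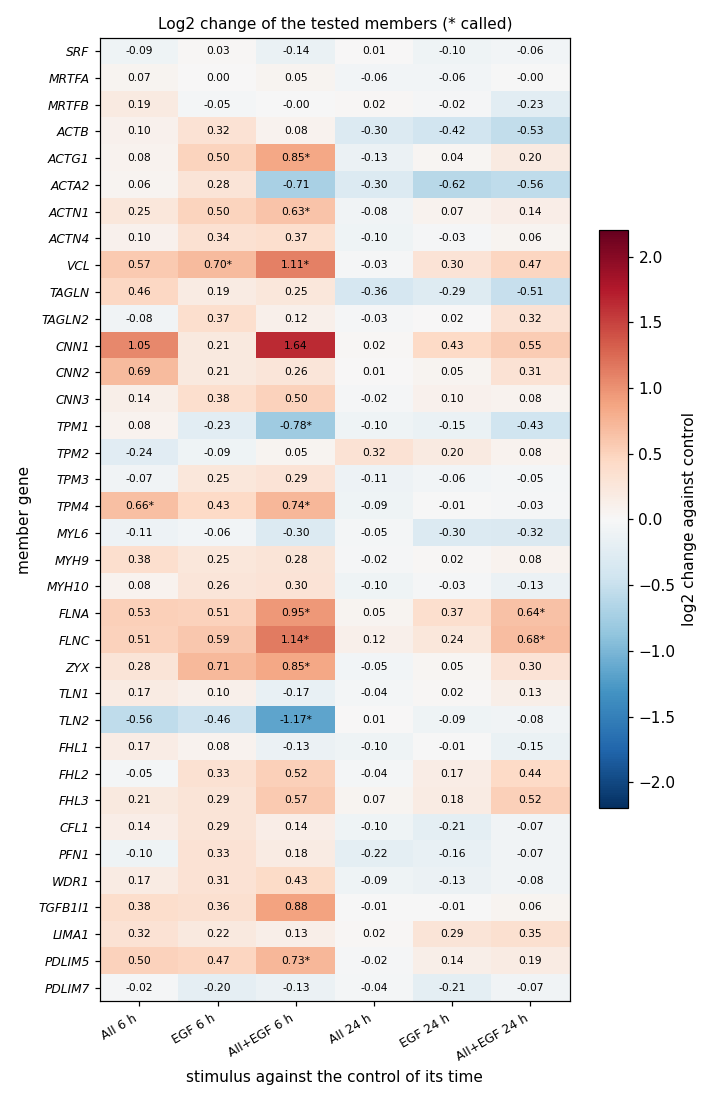
Log2 change of the 36 tested genes (rows) for the 6 stimulus groups relative to their own controls (columns), with the values printed and called changes starred. At 6 h AII + EGF shows 10 stars against 1 for AII and 1 for EGF, and at 24 h 2 stars, both under AII + EGF.

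Of the 4 crosslinkers 3 rose under AII + EGF at 6 h. FLNC, the muscle type filamin, was read at 47.8, 55.1, 50.1 and 39.2 CPM in the control libraries, 73.9, 70.2, 72.7, 58.96 and 66.1 under AII, 68.7, 67.8 and 80.1 under EGF and 115, 122, 88.8 and 97.7 under AII + EGF. All 4 libraries with AII + EGF lay above all 12 other libraries, and its log2 change was 1.14 ± 0.17 (SE, adjusted p = 1.87e-06). With all 48 libraries it was 0.58 (adjusted p = 0.0128), which was not called, and with 40 it was 0.94 (adjusted p = 0.00075). FLNA was at 837, 967, 719 and 909 CPM in the control libraries, 1216, 1203, 1327, 1233 and 1226 under AII, 1219, 1181 and 1277 under EGF and 1735, 1818, 1383 and 1712 under AII + EGF. Its AII and EGF libraries lay between the controls and AII + EGF without overlap, and the joint change was 0.95 ± 0.12 (SE, adjusted p = 4.01e-08). ACTN1, the non-muscle alpha-actinin of stress fibres, was at 90.5, 102, 76.7 and 71.5 CPM in the control libraries, 92.2, 85.1, 116, 116 and 99.01 under AII, 117, 119 and 124 under EGF and 136, 131, 122 and 141 under AII + EGF. The change of ACTN1 was 0.63 ± 0.14 (SE, adjusted p = 5.65e-04). It was 0.56 (adjusted p = 0.00591), under the fold minimum, without control 6 h replicate 6, 0.54 (adjusted p = 1.15e-04) with library totals in place of scaling factors, and 0.51 and 0.50 with 48 and 40 libraries. ACTN4, the other non-muscle alpha-actinin, was not called, at 0.37 ± 0.11 (SE, adjusted p = 0.00683), below the fold minimum.

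Among the focal adhesion genes VCL and ZYX rose and TLN2 fell. VCL, vinculin, links talin to actin, and was at 125, 142, 123 and 122 CPM in the control libraries, 184, 189, 197, 197 and 179.8 under AII, 205, 204 and 213 under EGF and 271, 269, 267 and 298 under AII + EGF. The AII and EGF libraries lay above the controls and below AII + EGF. The joint change of VCL was 1.11 ± 0.10 (SE, adjusted p = 2.44e-11). ZYX, zyxin, marks mature adhesions under tension and was at 50.7, 52.01, 40.8 and 36.6 CPM in the control libraries, 51.6, 49.3, 63.1, 61.5 and 47.6 under AII, 66.7, 76.9 and 76.9 under EGF and 79.8, 81.5, 75.1 and 89.3 under AII + EGF. Its change was 0.85 ± 0.19 (SE, adjusted p = 4.02e-04). With 40 libraries ZYX was at 0.68 (adjusted p = 0.0137), which was not called. TLN2, the second talin, which couples integrins to actin, was at 10.8, 14.4, 11.98 and 9.72 CPM in the control libraries, 8.20, 7.73, 7.56, 7.46 and 8.87 under AII, 7.53, 8.27 and 9.77 under EGF and 5.70, 5.99, 4.54 and 4.64 under AII + EGF. The AII libraries lay below all controls, 1 EGF library lay just above the lowest control, and the 4 AII + EGF libraries were the lowest. TLN2 changed by -1.17 ± 0.15 (SE, adjusted p = 6.80e-08). TLN1, the talin expressed at the higher level here, was at -0.17 ± 0.11 (SE, adjusted p = 0.227) and was not called. TGFB1I1 (Hic-5), at 0.88 ± 0.28 (SE, adjusted p = 0.0139), missed the adjusted p. It was called by DESeq2, with the title run as a block and with only the groups compared.

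Of the cytoplasmic actins ACTG1 was called under AII + EGF at 6 h and ACTB was not. The difference between them was not tested. ACTG1 was at 1838, 1622, 1303 and 934 CPM in the control libraries, 1251, 1269.7, 1745, 1782 and 1469 under AII, 1989.8, 1974 and 2069.8 under EGF and 2431, 2445, 2424 and 2954 under AII + EGF. Its 4 AII + EGF libraries lay above all others at 6 h, while controls and AII overlapped. The change of ACTG1 was 0.85 ± 0.22 (SE, adjusted p = 0.00228). It was 0.77 (adjusted p = 0.0105) without AII + EGF 6 h replicate 5, whose 2954 CPM stood apart, 0.69 (adjusted p = 0.0199) without control 6 h replicate 6, and 0.65 (adjusted p = 0.0437) with 40 libraries. ACTB gave 0.08 ± 0.18 (SE, adjusted p = 0.768), with 1726 ± 437 CPM (SD, n = 4) in controls and 1828 ± 245 CPM (SD, n = 4) under AII + EGF. The 22 pseudogenes of these 2 actins held 1.37 to 3.15 CPM in sum, so few reads were assigned to them. How reads that fit several copies were counted was not stated, and ACTB and ACTG1 encode nearly identical proteins. ACTA2 was at -0.71 ± 0.31 (SE, adjusted p = 0.0759) and was not called. It was called with the run of consecutive titles as a block and with only the groups compared, in each case also against EGF and against AII at 6 h.

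The tropomyosins, which lie along filaments and set their access to myosin, were called in both directions, TPM4 higher and TPM1 lower. TPM4 was at 288, 289.7, 318 and 244 CPM in the control libraries, 410.3, 423, 462, 492 and 464 under AII, 366, 369.7 and 417 under EGF and 453, 446, 472 and 529 under AII + EGF. Its change was 0.74 ± 0.11 (SE, adjusted p = 1.84e-06), and AII + EGF against AII gave 0.08 (95% interval -0.14 to 0.29). TPM1 was at 56.2, 51.2, 57.2 and 51.3 CPM in the control libraries, 52.4, 54.5, 58.4, 61.2 and 59.4 under AII, 43.3, 45.1 and 49.9 under EGF and 30.8, 29.9, 29.99 and 34.7 under AII + EGF. The AII libraries of TPM1 overlapped the controls, the 3 EGF libraries were lower, and the AII + EGF libraries were the lowest. TPM1 changed by -0.78 ± 0.09 (SE, adjusted p = 1.49e-08). With all 48 libraries this was -0.53 (adjusted p = 0.00275) and with 40 it was -0.54 (adjusted p = 0.00812), both under the fold minimum. TPM2 and TPM3 were not called, at 0.05 and 0.29. The files count reads per gene, so alternative TPM1 transcripts cannot be told apart.

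PDLIM5, a PDZ-LIM adaptor of Z-discs and stress fibres, was the called LIM gene. It was read at 71.7, 69.2, 71.9 and 52.7 CPM in the control libraries, 96.9, 95.99, 90.4, 96.4 and 89.3 under AII, 91.8, 92.9 and 91.8 under EGF and 107, 104, 113 and 117 under AII + EGF, and changed by 0.73 ± 0.12 (SE, adjusted p = 3.68e-06), with the AII + EGF libraries above all others at 6 h. The other tested members without a call (23 besides the regulators) ranged from -0.71 (ACTA2) to 1.64 (CNN1) under AII + EGF at 6 h. CNN1 had 18 counts in all 4 controls together and 54 in the 4 AII + EGF libraries, and its adjusted p was 0.0108. CNN3 gave 0.50 ± 0.10 (SE, adjusted p = 1.39e-04) and WDR1, a cofactor of cofilin, 0.43 ± 0.12 (SE, adjusted p = 0.00494), both below the fold minimum. MYL6 was at -0.30, MYH9 at 0.28 and MYH10 at 0.30. CFL1 and PFN1, which turn filaments over, were at 0.14 and 0.18. FHL2 and FHL3 were at 0.52 and 0.57.

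**Figure D3:**
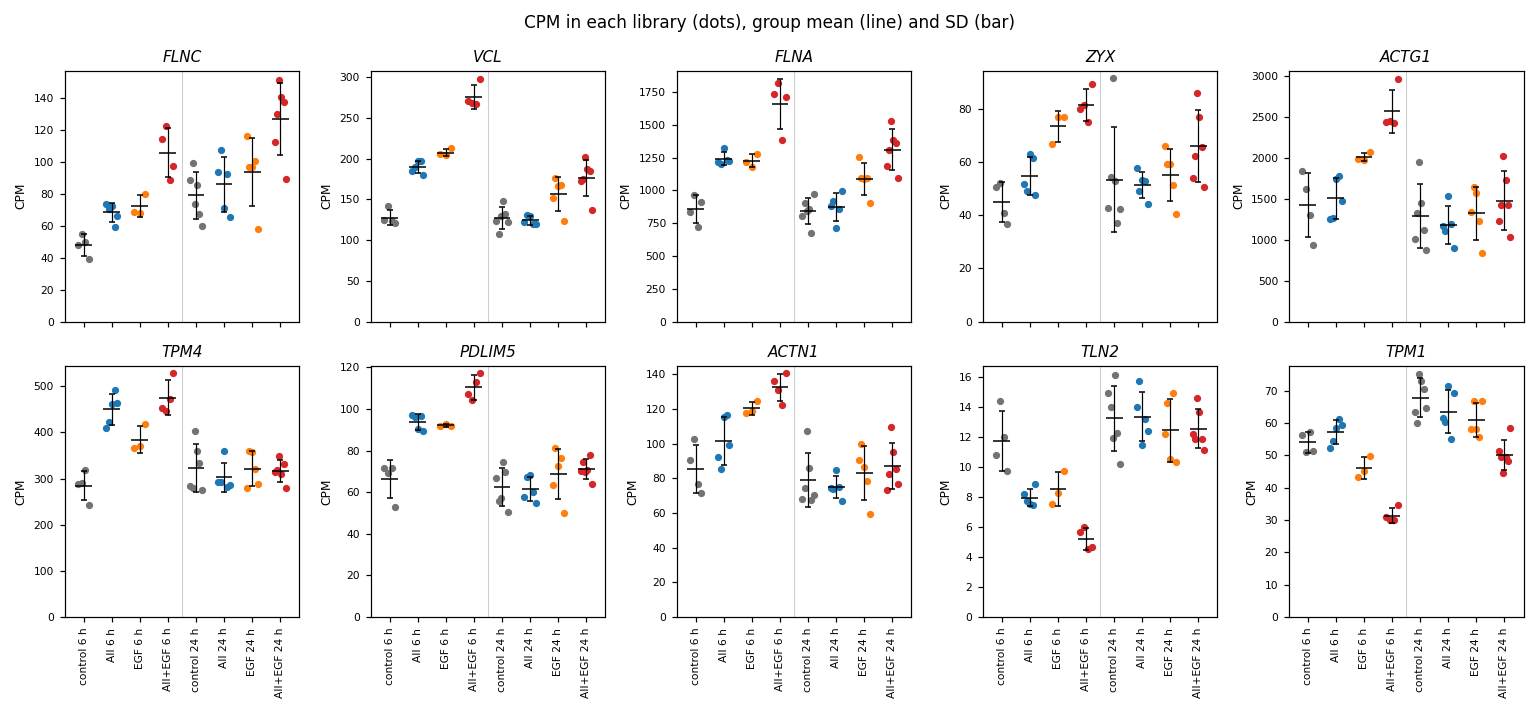
The 10 genes called against control, in CPM (y axis, from 0) in each library by group (x axis), as dots with group means as lines and SDs as bars. At 6 h the AII + EGF libraries form the highest group for the 8 genes that rose, overlapping AII for TPM4 and EGF for ZYX and ACTN1, and the lowest for TLN2 and TPM1.

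Each stimulus alone gave 1 call at 6 h. Under AII it was TPM4, at 0.66 ± 0.11 (SE, adjusted p = 1.65e-04), where 0.469% of all genes were called. The other changes with an adjusted p below 0.01 were those of VCL (0.57), FLNA (0.53) and PDLIM5 (0.50), each just under the fold minimum. With 48 or 40 libraries VCL was called too, with TLN2 in the first case and FLNA in the second. The count was 3 without control 6 h replicate 4 and 2 without AII 6 h replicate 5. Under EGF it was VCL, at 0.70 ± 0.11 (SE, adjusted p = 1.66e-05), where 1.94% of all genes were called. FLNA (0.51) passed the adjusted p but not the fold. With all 48 libraries VCL stood at 0.55 (adjusted p = 0.000399), under the fold minimum, and TLN2 was called in its place (-0.77, adjusted p = 0.000333). TLN2 was at -0.56 ± 0.14 (SE, adjusted p = 0.0181) under AII and at -0.46 ± 0.16 (SE, adjusted p = 0.07) under EGF, neither of them called with 38 libraries. With the title run as a block TLN2 and CNN2 were called beside TPM4 under AII, and ZYX beside VCL under EGF, as ZYX also was with only the groups compared. The median of the 36 genes was 0.158 under AII and 0.285 under EGF, against -0.00841 and -0.0117 over all genes.

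The comparisons of AII + EGF with each stimulus share its libraries with the comparisons above. Against EGF at 6 h only TLN2 was called, at -0.71 ± 0.16 (SE, adjusted p = 0.00242), where 2.92% of all genes were. It lost the call without AII + EGF 6 h replicate 3 (-0.65), AII + EGF 6 h replicate 5 (-0.65) or EGF 6 h replicate 5 (-0.60), and without EGF 6 h replicate 3 the count was 2. Against AII 4 were called, namely FLNC at 0.63 ± 0.16 (SE, adjusted p = 0.00293), ACTG1 at 0.77 ± 0.20 (SE, adjusted p = 0.0041), TLN2 at -0.61 ± 0.14 (SE, adjusted p = 0.00136) and TPM1 at -0.87 ± 0.09 (SE, adjusted p = 1.14e-09). Over all genes 7.6% were called there. FLNC lost the call without AII + EGF 6 h replicate 1 (0.59) or 2 (0.55) or AII 6 h replicate 4 (0.58) and with library totals (0.52, adjusted p = 0.0178), and TLN2 without AII + EGF 6 h replicate 3 (-0.55) or 5 (-0.56) or AII 6 h replicate 5 (-0.57). ACTG1 lost it without AII 6 h replicate 1 (0.71) or 2 (0.71) or AII + EGF 6 h replicate 5 (0.69), and without the last of these the count was 2. None of the 4 was called with 48 or 40 libraries. The interaction, the joint log2 change minus the sum of the single changes, was called for TPM1 at -0.64 ± 0.13 (SE, adjusted p = 0.00919), where 0.229% of all genes were. The call was lost when any of 15 of the 16 libraries was left out, at values of -0.58 to -0.68 over those omissions, and was -0.27 with 40 and -0.18 with 48 libraries. No other member was called for the interaction at 6 h. Of the 36 members 9 had a positive interaction value, with a median of -0.119, and 8 had an unadjusted p below 0.05. Over all genes 48.8% were positive, with a median of -0.00921. The 8 genes that rose under AII + EGF had interaction values from -0.36 (TPM4, interval -0.68 to -0.03) to 0.27 (ACTG1, interval -0.36 to 0.90). VCL was at -0.15 (interval -0.44 to 0.13), FLNA at -0.09 (interval -0.44 to 0.25) and FLNC at 0.04 (interval -0.46 to 0.54). The intervals are for each gene alone, and the adjusted p of TPM4 was 0.434. On the log2 scale the joint change of these 8 genes was not shown to differ from the sum of the single changes, which is not proof of equality.

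At 24 h 2 genes were called, and both were also called at 6 h. They were FLNA and FLNC under AII + EGF, with changes of 0.64 ± 0.10 (SE, adjusted p = 9.47e-06) and 0.68 ± 0.14 (SE, adjusted p = 5.24e-04), where 2.89% of all genes were. FLNA was at 673 to 972 (median 849) CPM in the 6 controls, at 884, 919.7, 712, 858 and 993 under AII, at 1252, 1096, 1088, 1091 and 906 under EGF and at 1093 to 1529.8 (median 1337) in the 6 libraries with AII + EGF. FLNC was at 59.95 to 99.6 (median 79.6) CPM in the 6 controls, at 93.7, 107, 71.04, 92.4 and 65.6 under AII, at 116, 96.9, 96.9, 100.3 and 58.3 under EGF and at 89.5 to 151 (median 134) in the 6 libraries with AII + EGF. The FLNA groups did not overlap, and the FLNC groups did. Of the members 2 were without overlap (FLNA and TPM1), and of all genes 4.73% were. Without control 24 h replicate 5 FLNA was at 0.58 (adjusted p = 5.49e-05), just under the fold minimum, and without control 24 h replicate 3 the count rose from 2 to 4. VCL was at 107 to 148 (median 127) CPM in the 6 controls, at 123, 131, 130.2, 120.3 and 119 under AII, at 152, 176, 166, 167 and 123 under EGF and at 137 to 202 (median 179.7) in the 6 libraries with AII + EGF. It passed the adjusted p but not the fold under AII + EGF, at 0.47 ± 0.08 (SE, adjusted p = 5.82e-05). TPM1 was at 60.1 to 75.3 (median 67.6) CPM in the 6 controls, at 61.4, 60.3, 71.4, 55.2 and 69.3 under AII, at 58.2, 66.7, 58.1, 55.6 and 66.8 under EGF and at 44.4 to 58.4 (median 49.5) in the 6 libraries with AII + EGF. Its AII + EGF libraries lay below every control, at -0.43 ± 0.07 (SE, adjusted p = 6.14e-05), again under the fold minimum. ACTB, at -0.53 ± 0.15 (SE, adjusted p = 0.00857), and LIMA1, at 0.35 ± 0.08 (SE, adjusted p = 9.46e-04), also passed the adjusted p only.

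The other genes that were called at 6 h were not called at 24 h. TLN2 was at 10.2 to 16.2 (median 13.2) CPM in the 6 controls, at 14.003, 15.8, 11.5, 13.2 and 12.4 under AII, at 12.2, 14.3, 10.5, 14.9 and 10.4 under EGF and at 11.1 to 14.6 (median 12.1) in the 6 libraries with AII + EGF. TPM4 was at 276 to 403 (median 309) CPM in the 6 controls, at 293, 293, 359, 282 and 287 under AII, at 278, 360.2, 357, 321 and 289 under EGF and at 278 to 349 (median 316) in the 6 libraries with AII + EGF. ZYX was at 36.96 to 91.4 (median 47.8) CPM in the 6 controls, at 57.7, 49.1, 53.3, 52.8 and 44.2 under AII, at 66.2, 59.2, 59.2, 51.4 and 40.4 under EGF and at 50.8 to 86.03 (median 63.9) in the 6 libraries with AII + EGF. These groups overlapped, and control 24 h replicate 3 was the highest ZYX library. ACTG1 was at 869 to 1953 (median 1219.6) CPM in the 6 controls, at 1161, 1105, 1530.2, 1191 and 897 under AII, at 1339, 1643, 1564, 1228 and 834 under EGF and at 1028 to 2025 (median 1427) in the 6 libraries with AII + EGF. ACTN1 was at 67.6 to 107 (median 72.5) CPM in the 6 controls, at 74.3, 73.6, 84.8, 74.9 and 66.9 under AII, at 90.7, 99.97, 86.2, 78.7 and 59.2 under EGF and at 73.4 to 109.5 (median 83.98) in the 6 libraries with AII + EGF. PDLIM5 was at 50.5 to 74.4 (median 62.1) CPM in the 6 controls, at 57.6, 67.2, 68.3, 60.2 and 54.8 under AII, at 63.5, 81.1, 72.4, 76.3 and 50.2 under EGF and at 63.9 to 78.1 (median 70.3) in the 6 libraries with AII + EGF. The groups of these 3 genes overlapped, and none of the 3 was called.

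No member was called under AII at 24 h by edgeR, with 0% of all genes called. None had an unadjusted p below 0.05, and DESeq2 called 0. No member was called under EGF at 24 h either, where 0.245% of all genes were, 5 members had an unadjusted p below 0.05, and DESeq2 called 0. With the title run as a block ACTA2 was called under EGF. Against AII alone AII + EGF gave FLNA at 0.59 ± 0.10 (SE, adjusted p = 1.89e-04), where 1.45% of all genes were called, and against EGF alone no member, where 0.0917% were. Against EGF alone 5 members had an unadjusted p below 0.05 and DESeq2 called 0. The FLNA call stood at the fold minimum and was lost in 9 of 20 alternatives, with values of 0.52 to 0.66. In 5 of these 9 a library was left out, AII 24 h replicate 3 (0.52) or 5 (0.58) or AII + EGF 24 h replicate 3 (0.53), 4 (0.57) or 5 (0.57), and the count rose to 2 without AII 24 h replicate 2 or AII + EGF 24 h replicate 6. The interaction at 24 h had no call among the members (0% of all genes), none with an unadjusted p below 0.05, and 0 by DESeq2. There 30 of the 36 members were positive, with a median of 0.136, against 47.7% and -0.0118 over all genes.

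The difference between the responses to AII + EGF at 24 h and 6 h was called for 3 genes, where 11.6% of all genes were. It was -0.76 ± 0.14 (SE, adjusted p = 1.03e-04) for TPM4 and -0.64 ± 0.13 (SE, adjusted p = 2.21e-04) for VCL, whose responses were smaller at 24 h, and 1.09 ± 0.19 (SE, adjusted p = 2.89e-05) for TLN2, which had fallen at 6 h. Without AII + EGF 24 h replicate 6 the VCL difference was -0.55 (adjusted p = 0.000735), under the fold minimum, and it was not called either with library totals (-0.55, adjusted p = 4.08e-04) or with 48 and 40 libraries (-0.46 and -0.54). For FLNA and FLNC it was -0.32 ± 0.15 (SE, adjusted p = 0.129) and -0.46 ± 0.22 (SE, adjusted p = 0.127), so their responses at the 2 times were not shown to differ. Each response was taken against its own controls.

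**Figure D4:**
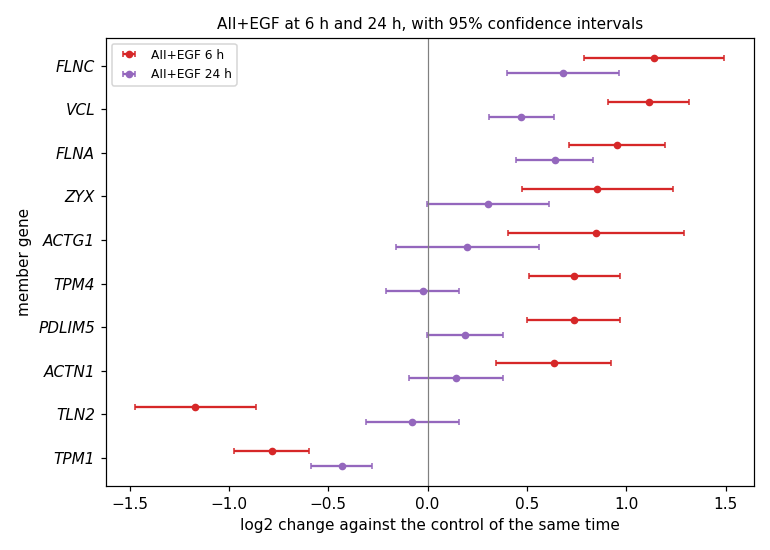
Log2 change under AII + EGF (x axis, points with 95% confidence intervals) for the 10 genes called against control (y axis), at 6 h and at 24 h. TPM4 and TLN2 stand at -0.03 and -0.08 at 24 h, while FLNA and FLNC stand at 0.64 and 0.68.

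The libraries come in runs of consecutive titles that each hold all 4 treatments. Within the runs that held both a control and the treated group, the sign of each called change was the same as in the pooled fit, in 20 of 20 values for AII + EGF at 6 h, 8 of 8 at 24 h, 2 of 2 for AII and 2 of 2 for EGF. For AII + EGF at 6 h the within-run values of VCL were 1.00 and 1.27, and those of TLN2 -1.48 and -1.37. Those of TPM1 were -0.84 and -0.72, of TPM4 0.71 and 0.74, of PDLIM5 0.68 and 0.71, of FLNC 0.79 and 0.96. The runs differed more for FLNA (0.62 and 1.25), ACTG1 (0.49 and 1.18), ACTN1 (0.34 and 0.87) and ZYX (0.55 and 1.13). The first values of ACTG1, ACTN1 and ZYX lay under the fold minimum. At 24 h the values were 0.17 to 1.02 for FLNA and 0.37 to 1.03 for FLNC. Each run holds 1 or 2 libraries per group. The calls were made from these same libraries, so the shared signs are not independent support. AII + EGF 6 h replicates 1 and 2 and AII 6 h replicates 1 and 2 had no control left in their run and are not among these values. Control 6 h replicate 6 was the only library kept of its run and is not among them either. It was the lowest 6 h control for every gene called against control except FLNA and TPM1. The part of its run in this was not tested.

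The lists of other genes of the same pathways were chosen with earlier results of these data known, so their counts are descriptive. These genes gave a wider picture at 6 h under AII + EGF. Over all genes 6.45% were called higher and 5.53% lower there, with a median of -0.0318. Of 31 tested further MRTF-SRF targets 8 rose and 3 fell, with a median of 0.170. The leading changes by adjusted p, given with their SE, were those of JUNB (2.30 ± 0.16), FBLIM1 (1.84 ± 0.18) and MICAL2 (1.36 ± 0.15), a monooxygenase that depolymerises nuclear actin, and TUFT1 (-0.79 ± 0.09). JUNB, an AP-1 subunit, also responds to ERK signalling and is not cytoskeletal. Under AII alone, where 0.469% of all genes were called, 1 of these genes rose, LPP, a zyxin relative (1.05 ± 0.16). Under EGF alone, where 1.94% were called, 2 of them rose. At 24 h under AII + EGF, where 2.89% of all genes were called, 1 did, MICAL2 (0.69 ± 0.12). Of the SRF-TCF early genes 13 of 19 were higher and none lower, with a median of 1.73 under AII + EGF at 6 h, against 6.45% higher and a median of -0.0318 over all genes. The 4 leading genes were EGR3 (4.88 ± 0.26), ARC (5.43 ± 0.33), EGR1 (5.22 ± 0.35) and DUSP5 (2.32 ± 0.16). Under EGF alone 7 of the 19 rose, with EGR1 at 4.21 ± 0.35, where 1.94% of all genes were called, and under AII alone 1 did, NR4A1 (0.72 ± 0.13), where 0.469% were. Of 4 tested SRF cofactors ELK3 (0.59 ± 0.11) rose. None of the 9 genes of the ARP2/3 complex, which nucleates branched filaments, was called under AII + EGF at 6 h, and 2 had an unadjusted p below 0.05.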

How the data were processed

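Per the labels, polyadenylated RNA of 1 AT1R-expressing HEK293 clone was sequenced in 48 libraries, 6 in each of 8 groups. The authors aligned the reads to hg38 with HISAT2 2.1.0 and deposited raw counts per gene from featureCounts. Strandedness and the treatment of reads with several matches were not given in the sources used here. The members and lists were chosen with earlier results of these data known. Libraries with near-identical counts (8) and with labels in doubt (2) were left out, in both cases by measured values.

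Counts were tested with edgeR 4.0.16 (R 4.3.3), TMM factors and the quasi-likelihood test, in 1 model with a mean for each of 8 groups over 38 libraries. After the filter on low counts 19626 of 44295 genes with a count (60610 in the table) were tested, and p-values were adjusted over all of them (Benjamini-Hochberg). Calls required 3 things together, namely adjusted p below 0.01, 1.5-fold or more, and over 5 CPM on average on the higher side. The code was run on simulated counts with known changes. The simulated libraries had no title runs, so that check cannot show how the calls behave where libraries differ by run. DESeq2 1.42.0 was an alternative.

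Every member was named. Values of each library, or for groups of 6 the range and median, are given for the 3 regulators, TLN2 and the members called against control. Other lists are given by counts and at most 4 genes by adjusted p. The result of 1 further list is not reported here. Alternatives were other libraries, scaling, filters and samples, DESeq2, title run as a block and leaving out each replicate. Promoters are from RefSeq (GRCh38.p14). Exon lengths and exons that were left off are from GENCODE v44 on GRCh37, where each stretch matched once.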

Additional observations from a re-analysis of the deposited data

Results flagged for a closer look

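In 91 groups of 4 to 6 libraries, over the 13 genes with values for each library, 8 had a highest or lowest library that stood apart from the others by Dixon's criterion, where chance gives about 1 in 20. MRTFB stood at 46.9 CPM in AII 24 h replicate 2 (others 34.1 to 36.7). ACTG1 stood at 2954 CPM and VCL at 298 CPM in AII + EGF 6 h replicate 5 (others 2424 to 2445 and 267 to 271). VCL stood at 142 CPM in control 6 h replicate 4 (others 121.5 to 124.5). TPM4 stood at 359 CPM in AII 24 h replicate 3 (others 282 to 293). FLNA stood at 1327 CPM in AII 6 h replicate 3 (others 1203 to 1233). ZYX stood at 91.4 CPM in control 24 h replicate 3 (others 36.96 to 54.2), and PDLIM5 at 52.7 CPM in control 6 h replicate 6 (others 69.2 to 71.9).

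In 4 cases the effect of a stimulus differed between conditions by the test of the difference itself. The response to AII + EGF differed between 24 h and 6 h by -0.64 on the log2 scale for VCL, -0.76 for TPM4 and 1.09 for TLN2. The effect of AII + EGF differed from the sum of the single effects by -0.64 for TPM1 at 6 h. This call was kept in only 5 of 25 alternatives.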

How the results depend on the processing

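The labels give no replicate numbers that would pair libraries, so the block that was fitted was the run of consecutive titles. Of 466 alternative values for the 24 pairs of member and comparison that were called, 397 kept the call and none reversed. Under AII + EGF at 6 h FLNA, PDLIM5, TLN2, TPM4 and VCL kept it in every alternative run, as did TPM4 under AII at 6 h and FLNC under AII + EGF at 24 h. The causes of the changes below were not tested. With all 48 libraries the number of called members was 3 under AII and 7 under AII + EGF at 6 h (10 with 38 libraries, with FLNC, ACTN1 and TPM1 lost), and 0 for AII + EGF against EGF and against AII at 6 h, for the interaction at 6 h and for AII + EGF against AII at 24 h. With 40 libraries it was 3 under AII and 6 under AII + EGF at 6 h, and 0 for AII + EGF against EGF and against AII and for the interaction at 6 h. Without a fold minimum it was 4 under AII and 2 under EGF at 6 h, 6 under AII + EGF at 24 h, 3 and 10 for AII + EGF against EGF and AII at 6 h, 4 against AII at 24 h and 5 for the difference of 24 h and 6 h. With the title run as a block it was, at 6 h, 12 for the joint stimulus (the 10 with ACTA2 and TGFB1I1), 3 for AII and 2 for EGF, 1 under EGF at 24 h, 2 and 7 against EGF and AII at 6 h, 0 against AII at 24 h and 5 for the difference of times. With only the groups compared it was 12 for the joint stimulus (the same 12 genes), 2 for EGF and 2 against EGF at 6 h, and 0 against AII at 24 h. Without the filter on low counts it was 2 under EGF and 0 for the interaction at 6 h. With RLE factors it was 0 for the interaction at 6 h and 2 against AII at 24 h, with library totals 0 and 0, as well as 9 under AII + EGF at 6 h (ACTN1 lost), 3 against AII at 6 h (FLNC lost) and 2 for the difference of times (VCL lost), and with DESeq2 it was 2 against AII at 24 h and 11 under AII + EGF at 6 h (TGFB1I1 added). Leaving out 1 library gave 1 to 3 called members under AII at 6 h, 8 to 13 under AII + EGF at 6 h, 1 to 4 under AII + EGF at 24 h, 0 to 2 against EGF at 6 h, 2 to 5 against AII at 6 h, 0 to 1 for the interaction at 6 h, 0 to 2 against AII at 24 h and 2 to 4 for the difference of times. At this depth ACTG2 and MYL9 were too low to test.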
